A study of Mus musculus with 36 samples.

Results

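The 10 genes described here serve the coupling, transport and endfoot functions of astrocytes: Gjb6, Gja1, Aqp4, Utrn, Slc1a2, Slc1a3, Glul, Aldoc, S100b and Gfap. Their members were every probe set of the Affymetrix Mouse Genome 430 2.0 array that the platform annotation assigns to a listed gene, which gave 34 probe sets of 45037 and 10 genes of 18193. Of the 34, 33 named 1 gene and 1 was shared between Slc1a2 and Gm13872. A log2 intensity above 6.64 on at least 9 of 36 arrays was taken as detection. By this rule 29 of the 34 probe sets were detected, 28 of them with a single gene, and each of the 10 genes kept at least 1. The 5 that were not detected were 1433094_at and 1459014_at of Slc1a2, 1439072_at and 1440491_at of Slc1a3 and 1426892_at of Utrn.

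RNA came from the striatum (rostral caudate/putamen with the nucleus accumbens) of adult male mice of 4 inbred strains, SWR/J, DBA/2J, C57BL/6J and 129P3/J, aged 8 to 10 weeks. The 4 saline groups received saline only. The 4 acute groups received saline on the same schedule and then a single 20 mg/kg dose of morphine subcutaneously on day 5. In the 4 chronic groups the drug was injected 3 times a day for 4 days, each dose being 10 mg/kg at first, 20 mg/kg from day 2 and 40 mg/kg from day 3, and the last injection of 40 mg/kg came on day 5. Tissue was collected 4 h after the last injection in every group, so acute and chronic mice differed in the last dose as well as in the history of injections. Each of the 12 groups had 3 arrays, and each array held pooled RNA of 3 mice. P-values therefore measure the spread between pools, and precision is limited by how many arrays there are. In whole tissue, fewer cells of a type and less RNA per cell cannot be told apart.

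Astrocytes are glial cells joined to each other by gap junctions, channels that let ions and small molecules pass from cell to cell. Their endfeet wrap blood vessels and carry water channels held in place by the dystrophin-glycoprotein complex. They clear synaptic glutamate through 2 transporters, turn it into glutamine and return it to neurons. In the striatum they surround the medium spiny neurons that receive dopamine and opioid signals.

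Values below are log2 of the deposited intensity, and a change is a difference of group means on this scale, fitted in limma over the 12 group means. A change over strains is the mean of the 4 within-strain differences and compares 12 arrays with 12. A change was called at an adjusted p under 0.05 (Benjamini-Hochberg over 27212 detected probe sets). The acute and chronic changes share the 12 saline arrays. Levels of different probe sets are not comparable, and the 6 Gja1 probe sets read the same transcripts, so counts over probe sets are not counts over independent genes.

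Features of the whole data set touch these results. Within a treatment, arrays that carry the same number in different strains departed alike from their groups (mean correlation 0.26 over 54 pairs), against -0.13 over 108 pairs with different numbers. What the numbers share is not given in the sources used here. Each call was therefore also tested with these sets of arrays as a random block (within-set correlation 0.24), and the adjusted p from that fit is given as the blocked adjusted p wherever it ended a call. Scores of the hybridization controls averaged 0.0058 in the saline, -0.18 in the acute and 0.17 in the chronic groups on the log2 scale. Over the 36 arrays, r with this score was -0.47 for S100b 1434342_at, -0.47 for Aqp4 1434449_at and -0.49 for Slc1a3 1452031_at. It was -0.37 to -0.48 for the 5 Gja1 probe sets called later, 0.20 for Slc1a2 1439940_at and 0.06 for Gjb6. In the deviations from group means these values were, in the same order, -0.19, -0.25, -0.20, -0.15 to -0.30, 0.13 and 0.40. The part of the score in the changes was not tested. Saline arrays 129P3/J replicate 3 and DBA/2J replicate 3 had low poly-A controls (-3.53 and -3.43), and C57BL/6J saline replicate 1 had the highest 3'/5' difference of Gapdh (0.72). Results were recomputed without these 3 arrays.

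Over strains, acute morphine raised 2 and lowered 2 of the 28 member probe sets (14.3%, against 4.69% of all detected probe sets, 2.59% higher and 2.11% lower). After chronic morphine 2 were higher and 7 lower than saline (32.1%, against 4.73% of all, 1.36% higher and 3.37% lower), and 1 was higher and 9 lower than after acute morphine (35.7%, against 23.4% of all, 8.87% higher and 14.6% lower). The 7 lower after chronic morphine lay in 3 genes, 5 of them in Gja1, 1 in Aqp4 and 1 in Utrn. With the random block the counts fell to 1 higher and 0 lower for acute (0.676% of all), 0 and 1 for chronic (0.331% of all), and 1 and 7 for chronic against acute (7.15% of all). The median change of the members was 0.07 after acute and -0.08 after chronic morphine, against 0.01 and 0.000116 for all probe sets. The F-test for morphine at a false discovery rate of 1% called 12 of the 28 (8.71% of all probe sets), in 8 genes that left out Gfap and Glul, and 2 with the block (0.478% of all). The counts fell to 2 for acute morphine when the 3 saline arrays were left out, and also when 129P3/J saline replicate 3, DBA/2J saline replicate 1, DBA/2J acute replicate 3 or SWR/J saline replicate 3 was left out alone.

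**Figure D1:**
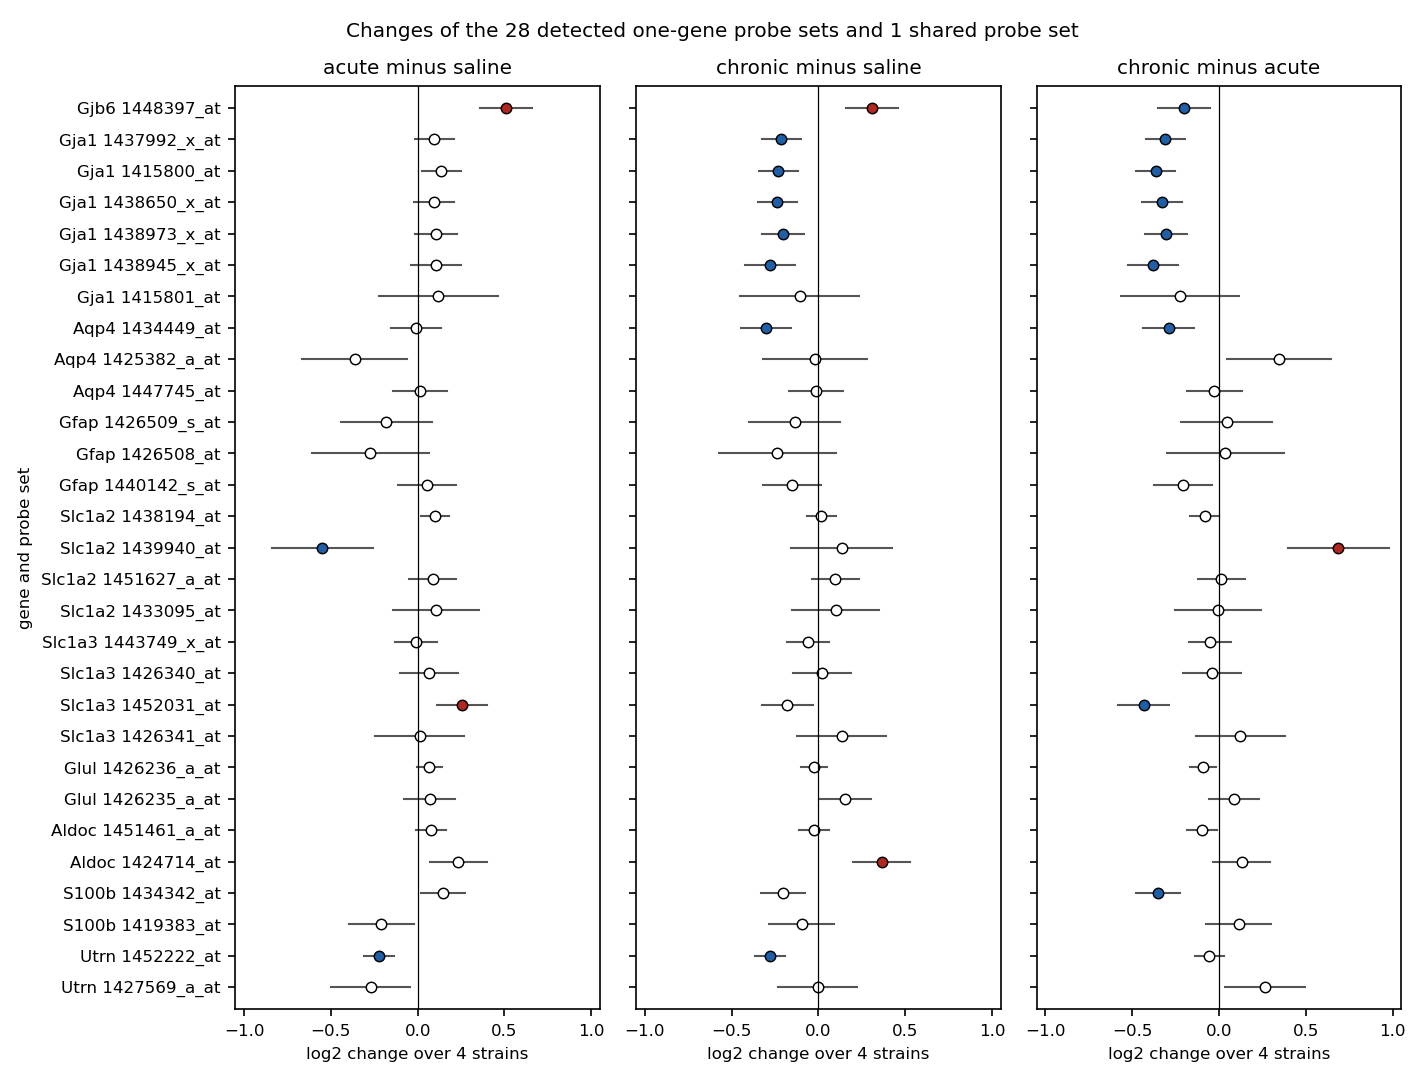
Log2 changes over the 4 strains (points) with 95% confidence intervals (lines) for acute minus saline, chronic minus saline and chronic minus acute, for 28 detected probe sets of a single gene and the shared Slc1a2 probe set 1433095_at. Filled points passed an adjusted p under 0.05, red higher and blue lower. Gjb6 stood to the right of 0 in both comparisons with saline, and 5 of the 6 Gja1 probe sets were called lower in both comparisons of chronic morphine.

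The promoters of 3 members with a probe set called for morphine are shown for context, both connexin genes and a glutamate transporter. They are the 250 bases before the RefSeq start on GRCm38.p6, printed 5' to 3' on the gene's strand. Capitals mark matches to the motifs searched, on either strand. A window was found for 9 of the 10 genes, 10 windows in all, and Aqp4 is named only.
Gjb6, chr14:57133612-57133861, minus strand: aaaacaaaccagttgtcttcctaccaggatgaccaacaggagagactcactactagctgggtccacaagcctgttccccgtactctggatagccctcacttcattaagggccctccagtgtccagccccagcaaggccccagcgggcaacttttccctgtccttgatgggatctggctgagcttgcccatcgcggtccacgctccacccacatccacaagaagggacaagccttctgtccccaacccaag
Gja1, chr10:56377050-56377299, plus strand: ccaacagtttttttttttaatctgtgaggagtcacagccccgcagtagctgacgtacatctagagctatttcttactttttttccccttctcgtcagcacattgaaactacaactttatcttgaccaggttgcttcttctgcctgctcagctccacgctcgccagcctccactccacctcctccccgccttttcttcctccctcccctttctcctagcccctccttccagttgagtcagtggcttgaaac
Slc1a3, chr15:8710808-8711057, minus strand: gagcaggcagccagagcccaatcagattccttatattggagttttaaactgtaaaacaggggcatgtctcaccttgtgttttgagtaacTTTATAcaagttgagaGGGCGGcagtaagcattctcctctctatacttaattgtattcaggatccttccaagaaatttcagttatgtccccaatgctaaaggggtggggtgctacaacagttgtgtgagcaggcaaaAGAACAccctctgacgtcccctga
The motifs were the glucocorticoid receptor core AGAACA, the palindromic glucocorticoid response element (GNACA and TGTNC with 3 bases between them), the cyclic AMP response element TGACGTCA, the Sp1 box GGGCGG, the TATA box TATAAA and the nuclear factor I site (TTGGC and GCCAA with 5 bases between them). None of these letters occurred in the Gjb6 or Gja1 window. The Slc1a3 window held the Sp1 box, the TATA box (on the opposite strand, as TTTATA) and the glucocorticoid receptor core, which begins 24 bases before the start. Among all 32851 windows of the table, cut to the same 250 bases before the start, 16.1% held AGAACA, 32.7% the Sp1 box, 12.4% the TATA box, 1.55% TGACGTCA, 0.387% the glucocorticoid response element and 0.0365% the nuclear factor I site. Of the 10 member windows, 1 held AGAACA, 3 the Sp1 box, 1 the TATA box and 0 any of the other motifs. A match is a run of letters, not a site of binding.

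Gjb6 (probe set 1448397_at) encodes connexin 30, a gap junction protein of astrocytes. The 12 saline arrays read 8.94 at the lowest, 9.56 at the median and 9.90 at the highest. The acute arrays read 9.83, 9.98 and 10.34 and the chronic arrays 9.47, 9.88 and 10.13. After acute morphine 9 of 12 arrays lay above every saline array, and in 129P3/J, C57BL/6J and SWR/J the 3 acute arrays lay above the 3 saline arrays of their strain (at least 3 strains in 1.52% of all probe sets). In DBA/2J saline replicate 3, at 9.90, overlapped the acute arrays.

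The acute change of Gjb6 was 0.51 (SE 0.07, 95% interval 0.36 to 0.66), a 1.42-fold rise (limma, adjusted p = 9.19e-05, blocked adjusted p = 0.00174). The chronic change was 0.31 (SE 0.07, adjusted p = 0.0138) and was not called with the block (blocked adjusted p = 0.12). Chronic minus acute came to -0.20 (adjusted p = 0.0472), with a blocked adjusted p of 0.15. That last call was also lost when any of 22 arrays was left out, whereas the acute change ranged from 0.46 to 0.56 over the 36 arrays left out in turn and was called each time. Gjb6 stands in the study's own list of morphine-responsive probe sets, chosen on these arrays, so its rise is not independent evidence.

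The saline arrays of Gjb6 were spread more widely than the treated ones, with an SD of 0.29 against 0.16 after acute morphine. In each strain the lowest saline array was the one numbered 1, at 9.56 in SWR/J, 9.13 in DBA/2J, 8.94 in C57BL/6J and 9.34 in 129P3/J. The means over strains of the saline arrays numbered 1, 2 and 3 were 9.24, 9.58 and 9.76, all below the acute means of 10.01, 10.05 and 10.05. Across the 12 saline arrays the level went with the hybridization control score (r = 0.85, arrays of 1 number shared their position), a correlation given as a description. Over all 36 arrays r was 0.06, and in the deviations from group means it was 0.40. The part of the hybridization score in the changes of Gjb6 was not tested. Without the 3 saline arrays that stood apart the acute change was 0.53 (adjusted p = 2.03e-06).

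**Figure D2:**
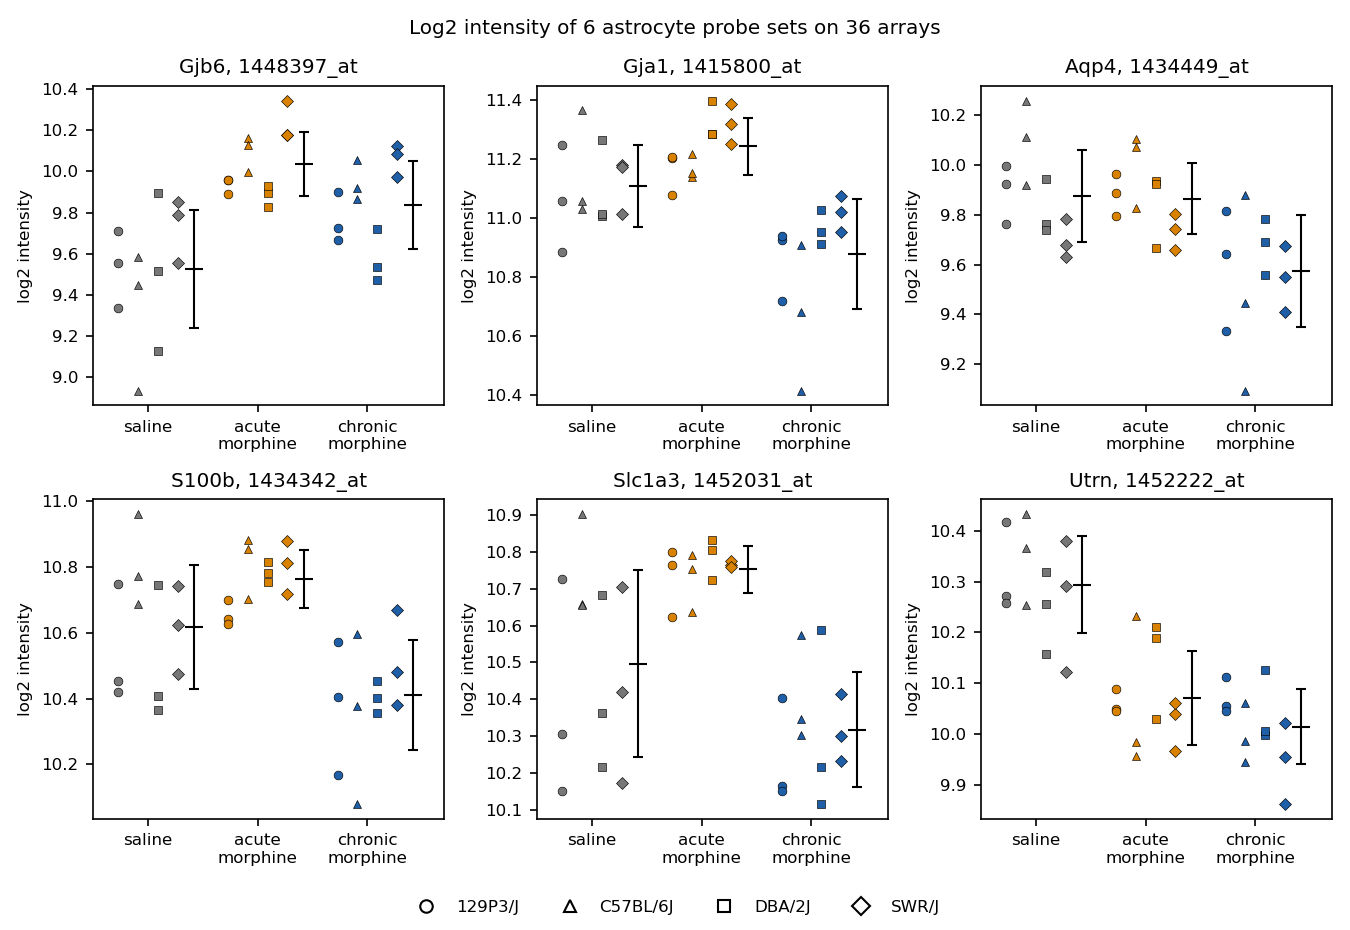
Log2 intensity of 6 member probe sets on each of 36 arrays, by treatment, with the strain shown by the symbol and the mean ± SD of 12 arrays at the right of each treatment. Gjb6 lay between 9.83 and 10.34 on the acute arrays, and Gja1, S100b and Slc1a3 were lower on the chronic than on the acute arrays.

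By group mean, Gjb6 ran from 9.32 ± 0.34 (SD, n = 3) in C57BL/6J saline to 10.23 ± 0.10 in SWR/J acute morphine. The 3 lowest groups, C57BL/6J, DBA/2J and 129P3/J saline, did not differ beyond their spread, with gaps of 0.19 and 0.02 against pooled SDs of 0.36 and 0.30. SWR/J saline, at 9.73, stood above DBA/2J chronic morphine by 0.15 against a pooled SD of 0.14. The 2 highest groups were C57BL/6J acute, at 10.10, and SWR/J acute, separated by 0.14 against a pooled SD of 0.09. Over treatments SWR/J exceeded DBA/2J by 0.35 (SE 0.08, adjusted p = 0.00565).

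Gja1 encodes connexin 43, the main gap junction protein of astrocytes. It is read by 6 detected probe sets. On 1415800_at the saline arrays ranged from 10.88 over a median of 11.06 to 11.37, the acute arrays from 11.08 over 11.24 to 11.40 and the chronic arrays from 10.42 over 10.93 to 11.08. Each of the 12 chronic arrays lay below every acute array, the nearest by less than the rounding, and the 3 chronic arrays lay below the 3 acute arrays in all 4 strains (0.544% of all probe sets). Chronic and saline arrays overlapped, with 3 of 12 chronic arrays below the lowest saline array.

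On the representative Gja1 probe set of highest signal, 1437992_x_at, the arrays read 11.12, 11.19 and 11.50 at the lowest, median and highest in saline, 11.13, 11.34 and 11.53 after acute and 10.56, 11.12 and 11.26 after chronic morphine. Its chronic change from saline was -0.21 (SE 0.05, adjusted p = 0.023, blocked adjusted p = 0.214). Its call from saline was lost without C57BL/6J chronic replicate 3 (-0.18, adjusted p = 0.0525) or SWR/J saline replicate 1 (-0.20, adjusted p = 0.0509). Chronic minus acute was -0.31 (SE 0.05, adjusted p = 0.000525, blocked adjusted p = 0.0112).

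Over the Gja1 probe sets, 5 of 6 fell from saline to chronic morphine by 0.20 to 0.28 on the log2 scale (adjusted p 0.0143 to 0.046), and none of the 5 was called with the block (blocked adjusted p 0.132 to 0.264). Of these, 1438973_x_at lost its call when any of 23 arrays was left out. The same 5 fell by 0.31 to 0.38 from acute to chronic morphine (adjusted p 0.000197 to 0.000966) and were called with the block (0.00592 to 0.0151). After acute morphine the 6 probe sets were 0.09 to 0.13 above saline, and none was called (lowest adjusted p = 0.162). The sixth probe set, 1415801_at, was not called in any of the 3 comparisons. On C57BL/6J saline replicate 1 it read 6.48, while the other saline arrays read 8.57 or more, and its level went with the 3'/5' difference of Gapdh over the 36 arrays (r = -0.79). The 5 other probe sets correlated with each other at 0.97 to 1.00 over the 12 group means and with it at 0.36 to 0.49.

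Gjb6 and Gja1 (1437992_x_at) shared a sign in 2 of the 3 comparisons. After acute morphine they stood at 0.51 and 0.10, the latter not called, and from acute to chronic morphine at -0.20 and -0.31. Against saline, Gjb6 was higher and Gja1 lower after chronic morphine, and neither call was kept with the block (blocked adjusted p = 0.12 and blocked adjusted p = 0.214). Their group means correlated at 0.11 over 12 groups. Among the other genes of the gap junction list, Gjb1 (connexin 32 of oligodendrocytes) fell by 0.48 after chronic morphine (adjusted p = 0.000923, still called with the block). In all, 1 of 8 detected genes of that list was higher and 0 lower after acute morphine, and 1 was higher and 2 were lower after chronic morphine (genes by representative probe set, 4.66% and 5.74% of all). With the block 1 higher was left for acute and 1 lower for chronic morphine. From acute to chronic morphine, Tjp1, a scaffold of cell junctions, fell by 0.17 (adjusted p = 0.0136, blocked adjusted p = 0.0933) and Gjc3 (connexin 29) rose by 0.21 (adjusted p = 0.0443, blocked adjusted p = 0.184). In that comparison 1 of the 8 was higher and 4 were lower (23.6% of all genes called), and with the block 0 were higher and 1 lower.

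Aqp4 encodes the water channel of the endfeet. On 1434449_at the saline arrays read 9.63, 9.85 and 10.26 at the lowest, median and highest, the acute arrays 9.66, 9.85 and 10.10 and the chronic arrays 9.09, 9.60 and 9.88. Acute and saline arrays covered the same range, while 6 of 12 chronic arrays lay below the lowest saline array. The chronic change was -0.30 (SE 0.07, adjusted p = 0.0136, blocked adjusted p = 0.181), chronic minus acute -0.29 (adjusted p = 0.00466, blocked adjusted p = 0.0556) and acute minus saline -0.01 (adjusted p = 0.956). The other 2 detected probe sets were not called, 1425382_a_at at -0.36 after acute and -0.02 after chronic morphine and 1447745_at at 0.01 and -0.01. With the mean of the 3 probe sets the chronic change was -0.11 (adjusted p = 0.373), so the fall of Aqp4 rests on 1 probe set.

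Utrn encodes utrophin, a relative of dystrophin in the membrane complex of endfeet and vessels. On 1452222_at the saline arrays read 10.12, 10.28 and 10.43 at the lowest, median and highest, the acute arrays 9.96, 10.05 and 10.23 and the chronic arrays 9.86, 10.01 and 10.13. The 3 chronic arrays lay below the 3 saline arrays in all 4 strains (0.158% of all probe sets), and 11 of 12 chronic and 9 of 12 acute arrays lay below every saline array. Utrn fell by 0.22 after acute (SE 0.04, adjusted p = 0.00191, blocked adjusted p = 0.0667) and by 0.28 after chronic morphine (SE 0.04, adjusted p = 0.000253, called with the block too). Leaving out single arrays gave chronic changes of -0.30 to -0.26, all called. Chronic minus acute was -0.06 and was not called (limma, adjusted p = 0.345). Utrn, too, is in the study's morphine list. The other detected probe set, 1427569_a_at, stood at -0.27 after acute morphine (adjusted p = 0.167) and -0.005 after chronic morphine (adjusted p = 0.986), and with the mean of both the chronic change was -0.14 (adjusted p = 0.171).

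In the list of endfoot and dystrophin-glycoprotein genes, 14 of 17 were detected. After acute morphine 1 was higher, Sgcb (beta-sarcoglycan, 0.27, adjusted p = 0.00393, blocked adjusted p = 0.0889), and 1, Utrn, lower (4.66% of all genes called), neither with the block. After chronic morphine 3 were lower than saline (5.74% of all genes called): Aqp4, Utrn and Sgce (epsilon-sarcoglycan, -0.18, adjusted p = 0.0167, blocked adjusted p = 0.214). Of these the block left Utrn. From acute to chronic morphine 7 of 14 fell and 0 rose (17.5% of all genes lower), and 3 were lower with the block. Among the 7 were Mlc1, an endfoot membrane protein (-0.53, adjusted p = 0.00136), Dmd (dystrophin, -0.28, adjusted p = 0.0107, blocked adjusted p = 0.0746) and Sgcb (-0.23, adjusted p = 0.00418, blocked adjusted p = 0.0545). The median of the list was -0.18, against -0.03 for all genes.

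Slc1a2 and Slc1a3 encode the glutamate transporters GLT-1 and GLAST. The representative Slc1a2 probe set, 1438194_at, read 11.78, 12.02 and 12.21 at the lowest, median and highest in saline, 12.02, 12.10 and 12.23 after acute and 11.79, 12.07 and 12.18 after chronic morphine. These ranges overlapped, with changes of 0.10 (adjusted p = 0.155) and 0.02 (adjusted p = 0.842). Another probe set, 1439940_at, fell by 0.55 after acute morphine (SE 0.14, adjusted p = 0.0239, blocked adjusted p = 0.184) and was 0.69 higher after chronic than after acute morphine (SE 0.14, adjusted p = 0.00155, called with the block too). In each of the 4 strains its acute mean was below its saline mean, by 0.84 in DBA/2J, 0.58 in SWR/J, 0.53 in C57BL/6J and 0.25 in 129P3/J. The acute call was lost without the 3 saline arrays (-0.48, adjusted p = 0.113), or without 129P3/J saline replicate 3, DBA/2J saline replicate 1, DBA/2J acute replicate 3 or SWR/J saline replicate 3 alone. Over the 12 group means this probe set and the representative correlated at -0.25. The third Slc1a2 probe set, 1451627_a_at, and the shared 1433095_at were not called.

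Of the 4 Slc1a3 probe sets, 1452031_at was called. Its saline arrays read 10.15, 10.54 and 10.90 at the lowest, median and highest, its acute arrays 10.62, 10.76 and 10.83 and its chronic arrays 10.12, 10.30 and 10.59. The acute arrays lay in a narrow band within the saline range (SD 0.06 against 0.25), and all 12 chronic arrays lay below every acute array. Chronic arrays below the acute arrays in all 4 strains were found in 0.544% of all probe sets. The acute change was 0.26 (SE 0.07, adjusted p = 0.0339, blocked adjusted p = 0.168), a call lost without the 3 saline arrays (0.23, adjusted p = 0.171) and without any of 15 single arrays. Chronic minus acute was -0.43 (SE 0.07, adjusted p = 0.000346, blocked adjusted p = 0.00563). The other 3 probe sets, the representative 1443749_x_at among them, changed by -0.01 to 0.06 after acute and -0.06 to 0.13 after chronic morphine, with none called. Of these 1426340_at and 1426341_at went with the 3'/5' difference of Gapdh over the 36 arrays (r = -0.70 and -0.81), a relation whose part in the values was not tested. That difference was 0.72 on C57BL/6J saline replicate 1 and -0.11 to 0.12 on the other arrays. How far these correlations rest on that array was not tested.

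In the transport list 13 of 16 genes were detected, each read by its representative probe set. After acute morphine 0 of the 13 were called in limma or with the random block (4.66% of all genes in limma), and 4 had an unadjusted p under 0.05. The largest changes among the 13, whatever their unadjusted p, were Slc7a11, the cystine/glutamate exchanger, at -0.29 (adjusted p = 0.303), and Slc38a3, a glutamine transporter, at -0.17 (adjusted p = 0.0566). After chronic morphine 2 fell (5.74% of all genes called), Slc14a1 (urea transporter, -0.39, adjusted p = 0.0208, blocked adjusted p = 0.205) and Slc7a10 (a transporter of small neutral amino acids, -0.14, adjusted p = 0.0475, blocked adjusted p = 0.37). From acute to chronic morphine Slc38a3 rose by 0.17 (adjusted p = 0.0219, blocked adjusted p = 0.107) and Slc4a4, a sodium bicarbonate cotransporter, fell by 0.17 (adjusted p = 0.0042, blocked adjusted p = 0.0644). These were the 1 higher and 1 lower of the 13 in that comparison (23.6% of all genes called), and with the block 0 were called.

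Glul encodes glutamine synthetase and Aldoc the brain form of aldolase. Glul 1426236_a_at read 11.73, 11.85 and 12.03 at the lowest, median and highest in saline, 11.82, 11.93 and 12.03 after acute and 11.71, 11.81 and 11.95 after chronic morphine. The 3 ranges overlapped, and neither Glul probe set was called in a comparison over strains, with changes of 0.07 and -0.03 on the first-named (95% intervals -0.006 to 0.14 and -0.10 to 0.05). Aldoc 1451461_a_at, the representative, changed by 0.07 and -0.02 and was not called. Aldoc 1424714_at rose by 0.36 after chronic morphine (SE 0.08, adjusted p = 0.00805, blocked adjusted p = 0.108). Its saline arrays ran from 7.79 over 8.51 to 8.86 and its chronic arrays from 8.12 over 8.85 to 9.53, a spread that held strain differences. In the list of glutamine, glycogen and glycolytic enzymes (12 genes), 1 was higher and 1 lower after acute morphine (4.66% of all genes called) and 0 and 1 after chronic morphine (5.74% of all), and with the block 0 were called in either. Slc16a1, a lactate transporter, fell by 0.28 and 0.45 (adjusted p = 0.037 and adjusted p = 0.00142, with blocked adjusted p = 0.306 and blocked adjusted p = 0.0771), and Acsbg1, an acyl-CoA synthetase of astrocytes, rose by 0.24 after acute morphine (adjusted p = 0.0114, blocked adjusted p = 0.169). From acute to chronic morphine 4 of the 12 genes were lower and 0 higher (17.5% of all genes lower), and the block left 2.

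S100b encodes a calcium-binding protein of astrocytes. On 1434342_at the arrays read 10.36, 10.65 and 10.96 at the lowest, median and highest in saline, 10.63, 10.77 and 10.88 after acute and 10.08, 10.40 and 10.67 after chronic morphine. In every strain the 3 chronic arrays lay below the 3 acute arrays (0.544% of all probe sets). Chronic minus acute was -0.35 (SE 0.06, adjusted p = 0.000495, called with the block too), while chronic minus saline, at -0.21, lay just outside the threshold (adjusted p = 0.0511). It passed without the 3 saline arrays that stood apart (-0.25, adjusted p = 0.0345) and missed it by more with quantile normalization (adjusted p = 0.0875) and with the block (blocked adjusted p = 0.276). S100b 1419383_at was not called (-0.21 and -0.10 from saline). Its acute change was opposite in sign to that of 1434342_at (0.15). From acute to chronic morphine it stood at 0.11, so the fall of S100b in that comparison rests on 1 probe set.

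Gfap encodes the intermediate filament that marks reactive astrocytes. The representative probe set, 1426509_s_at, read 8.53, 9.18 and 9.83 at the lowest, median and highest in saline, 8.47, 8.97 and 9.77 after acute and 8.63, 9.06 and 9.48 after chronic morphine. The treatments overlapped along the whole range. Its changes were -0.18 after acute (95% interval -0.44 to 0.08, adjusted p = 0.477) and -0.14 after chronic morphine (-0.40 to 0.13, adjusted p = 0.563). Its level went with the hybridization control score over the 36 arrays (r = 0.52), whose part in these values was not tested. None of the 3 Gfap probe sets was called for morphine. Of the 13 reactive astrocyte genes listed, 9 were detected, with 1, 1 and 0 at an unadjusted p under 0.05 in the 3 comparisons. In each, 0 were called by limma or with the random block (4.66%, 5.74% and 23.6% of all genes called in limma). With 9 genes, 0 calls against saline lie near these shares. The largest acute change among the 9 was that of Serpina3n, at 0.22 (adjusted p = 0.0867). In the list of astrocyte identity and cytoskeleton, 1 of 18 genes was higher and 0 lower after acute morphine (4.66% of all genes called), and 2 were higher and 2 lower after chronic morphine (5.74% of all), none of them with the block. The chronic changes were -0.53 for Fabp7, a fatty acid binding protein (adjusted p = 0.00189, blocked adjusted p = 0.0803), 0.31 for Id3, an inhibitor of DNA binding (adjusted p = 0.013, blocked adjusted p = 0.17), 0.23 for the growth factor receptor Fgfr3 (adjusted p = 0.0187, blocked adjusted p = 0.203) and -0.17 for the transcription factor Sox2 (adjusted p = 0.0407, blocked adjusted p = 0.35). From acute to chronic morphine 3 of the 18 were higher and 5 lower (23.6% of all genes called), and the block left 0 higher and 2 lower.

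Within strains, where 3 arrays meet 3, limma without the block called members in C57BL/6J alone. In 129P3/J, DBA/2J and SWR/J, limma called 0 of the 28 after acute morphine (0.0147%, 0.974% and 0.0478% of all probe sets) and 0 after chronic morphine (0.00367%, 0.00735% and 0.0294%), with 3, 8 and 6 and with 5, 1 and 3 at an unadjusted p under 0.05. The random block also called 0 of these against saline, and from acute to chronic morphine it called 1, Slc1a3 1452031_at in DBA/2J (-0.48, adjusted p = 0.0662, blocked adjusted p = 0.039). In C57BL/6J 1 of 28 probe sets was called after acute morphine, Gjb6, which was 0.77 higher (SE 0.15, adjusted p = 0.00992; 0.294% of all probe sets were called). After chronic morphine 1 was higher and 7 lower (28.6%, against 1.75%). Gjb6 rose by 0.62 (adjusted p = 0.0316), 5 Gja1 probe sets fell by 0.47 to 0.56 (adjusted p 0.0206 to 0.0393), Aqp4 1434449_at fell by 0.62 (adjusted p = 0.0264) and Utrn 1452222_at by 0.35 (adjusted p = 0.0321). From acute to chronic morphine 4 Gja1 probe sets fell in C57BL/6J (0.228% of all probe sets), by 0.50 to 0.66 (adjusted p 0.0424 to 0.0457).

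In C57BL/6J the 3 saline arrays of Gja1 1415800_at read 11.03, 11.37 and 11.06 and the 3 chronic arrays 10.68, 10.91 and 10.42. For Aqp4 the saline arrays read 9.92, 10.26 and 10.11 and the chronic arrays 9.45, 9.88 and 9.09. For Gjb6 the saline arrays read 8.94, 9.45 and 9.58 and the acute arrays 10.16, 10.00 and 10.13. The groups did not overlap for any of the 3 probe sets, with the narrowest gap, between 9.88 and 9.92, in Aqp4. The 3 were picked from those called on these same values, so the lack of overlap adds no support to the calls.

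The calls against saline in C57BL/6J were kept with the random block, but their number changed when single arrays were left out. The count of 8 after chronic morphine fell to 0 without C57BL/6J saline replicate 2, chronic replicate 1 or chronic replicate 3, to 3 without C57BL/6J saline replicate 1, and to 0 without the 3 saline arrays that stood apart. The acute call of Gjb6 was lost without C57BL/6J saline replicate 1, acute replicate 1 or acute replicate 3. In the other strains the signs were mostly shared. Gja1 1415800_at changed after chronic morphine by -0.11 in SWR/J, -0.13 in DBA/2J and -0.20 in 129P3/J, and Gjb6 after acute morphine by 0.50, 0.37 and 0.40. The interaction F-test called 0 of 28 member probe sets (limma, lowest adjusted p = 0.957) and 0 of all 27212. At an unadjusted p under 0.05 it held 1 of the 28, Gfap 1440142_s_at, and 1399 of all. A difference between the strains in the response of these genes was therefore not shown.

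**Figure D3:**
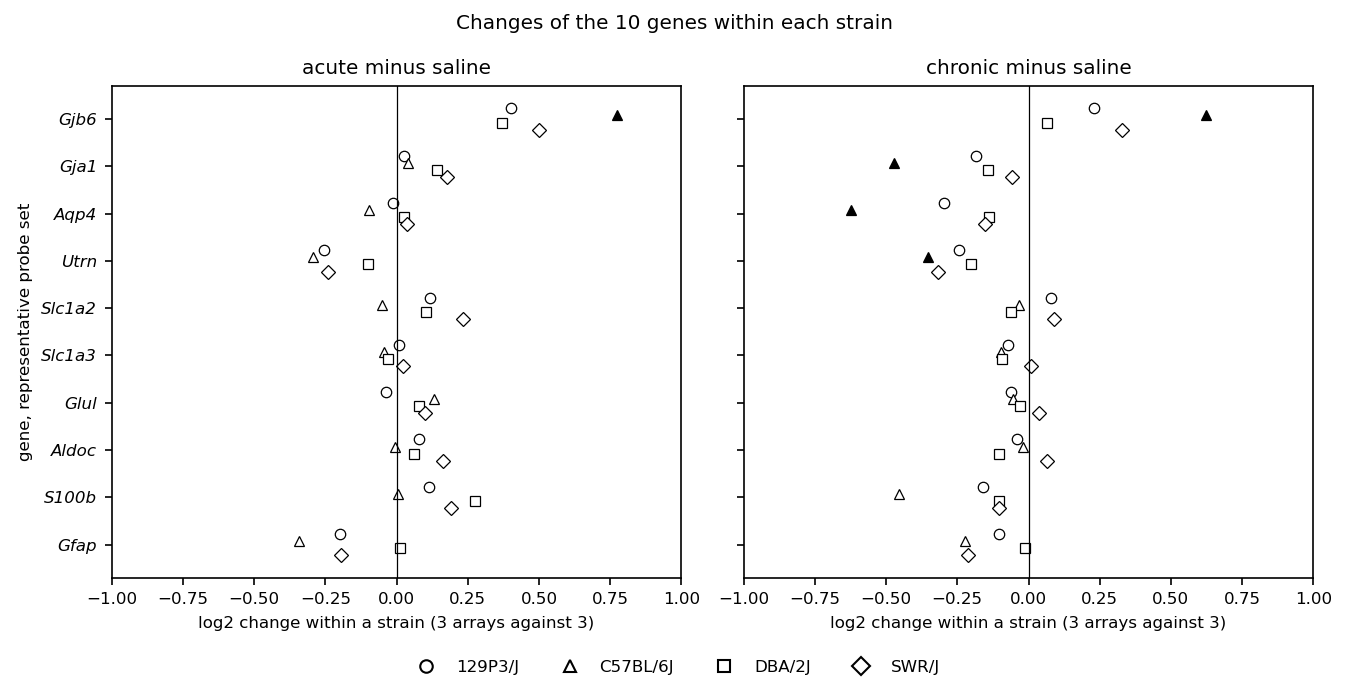
Log2 change from saline within each strain for the representative probe set of each of the 10 genes, after acute (left) and chronic (right) morphine, 3 arrays against 3. Filled symbols passed an adjusted p under 0.05. Only C57BL/6J symbols are filled, while Gjb6 lay right of 0 and Utrn left of 0 in all 4 strains in both panels.

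The F-test for strain at a false discovery rate of 1% called 3 of the 28 probe sets (10.7%, against 13.2% of all probe sets). With the random block it called 7 (17.9% of all). None of the 3 was the representative of its gene, and 1 of them, a Gfap probe set, was under the detection level in a whole strain. Slc1a2 1439940_at had medians over 9 arrays of 10.23 in DBA/2J, 9.19 in C57BL/6J, 8.99 in SWR/J and 7.58 in 129P3/J. DBA/2J exceeded 129P3/J by 2.26 (SE 0.16, adjusted p = 1.22e-11), and the lowest DBA/2J array, at 9.37, lay above the highest of 129P3/J, at 8.98. On 1438194_at of the same gene the 4 strain means lay between 11.94 and 12.11.

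Gfap 1440142_s_at was above the detection level on 21 of 36 arrays and passed the filter through the strains where it is high, so its levels are given as a description. Its 9 arrays of 129P3/J read 5.60, 6.08 and 6.23 at the lowest, median and highest, all under the detection level, and those of SWR/J 7.04, 7.35 and 7.81, with no overlap. On 1426508_at of Gfap SWR/J and 129P3/J differed by 0.69 (adjusted p = 0.0167), and on 1426509_s_at the strain means ran from 8.84 in 129P3/J to 9.29 in SWR/J.

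Aldoc 1424714_at, which is in the study's list of strain-dependent probe sets, had medians of 9.10 in SWR/J, 8.60 in C57BL/6J, 8.56 in 129P3/J and 8.22 in DBA/2J. SWR/J exceeded DBA/2J by 0.80 (SE 0.09, adjusted p = 1.32e-07), and the strains overlapped between 8.58 and 8.66. On 1451461_a_at of Aldoc the strain means lay between 11.96 and 12.06. Over the 6 strain pairs 17 tests of members passed, 2 to 4 of the 28 probe sets a pair, with 8.02% of all probe sets called for SWR/J minus DBA/2J, 10.3% for SWR/J minus C57BL/6J, 8.1% for SWR/J minus 129P3/J, 8.93% for DBA/2J minus C57BL/6J, 7.86% for DBA/2J minus 129P3/J and 9.65% for C57BL/6J minus 129P3/J. Of the 17, 15 were in these 3 probe sets together with Gfap 1426508_at, 5 of them in Gfap 1440142_s_at, and the others in Gjb6 and Slc1a2 1438194_at.

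**Figure D4:**
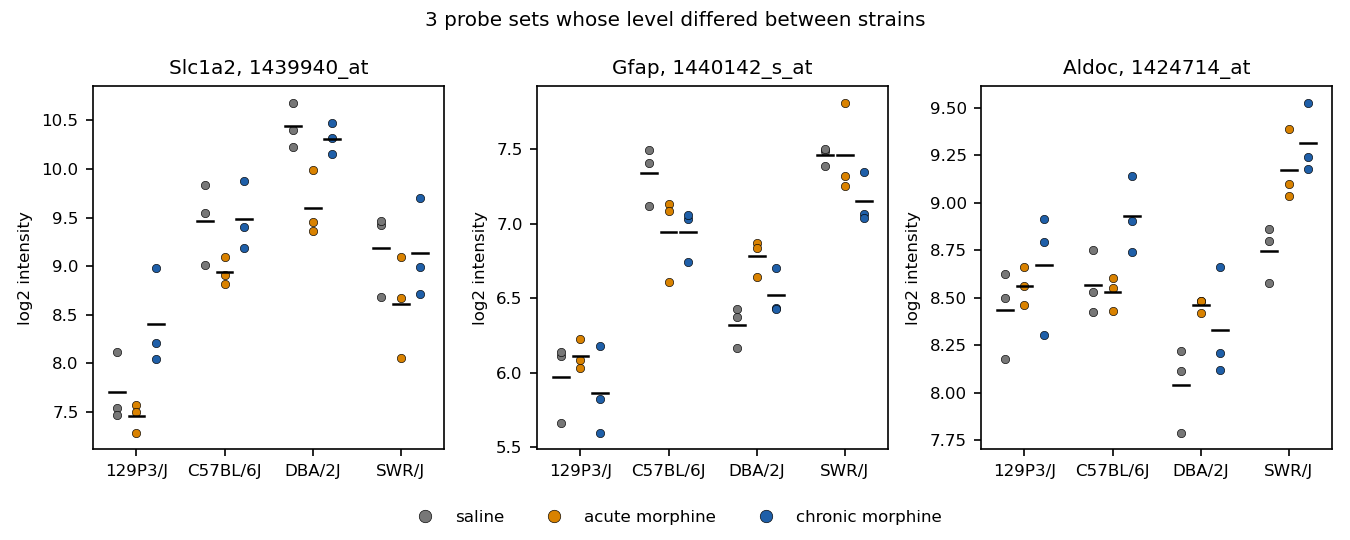
Log2 intensity of Slc1a2 1439940_at, Gfap 1440142_s_at and Aldoc 1424714_at on each of 36 arrays by strain, coloured by treatment, with the mean of 3 arrays as a bar. DBA/2J was highest for the Slc1a2 probe set and SWR/J for the other panels, and 129P3/J was lowest for Slc1a2 and Gfap.

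The members, each read by its representative probe set, varied together in part, and the pairs with the largest r in size are given. Over 12 group means, Gja1 and S100b correlated at 0.84, and at 0.79 in the deviations of the 36 arrays from their group means. Aqp4 and S100b correlated at 0.75 (0.47 in the deviations), Aqp4 and Slc1a3 at 0.71 (0.24), and Gjb6 and Utrn at -0.79 (0.14). These values are descriptions over arrays that share strain, treatment and number, and they can depend on the probe set that stands for a gene. Within a gene, r over the group means was 0.05 between S100b 1434342_at and 1419383_at and 0.99 between Gja1 1437992_x_at and 1415800_at.

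The genes whose 12 group means were most like Gjb6 were Tsc22d3 (r = 0.90), Cbs (0.88), Atp10a (0.87), Sult1a1 (0.87) and Gpt2 (0.86). Tsc22d3 is known as a glucocorticoid-induced gene and changed by 0.85 after acute and 0.55 after chronic morphine. Nearest to Gja1 were Zfp930 (0.97), Becn1 (0.95), Mettl9, Herpud2 and Dcaf17 (0.93 each). For Aqp4 the list was headed by Rnf128 (0.95), for S100b by Lamp2 (0.96) and for Utrn by Btbd17 (0.94).

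**Figure D5:**
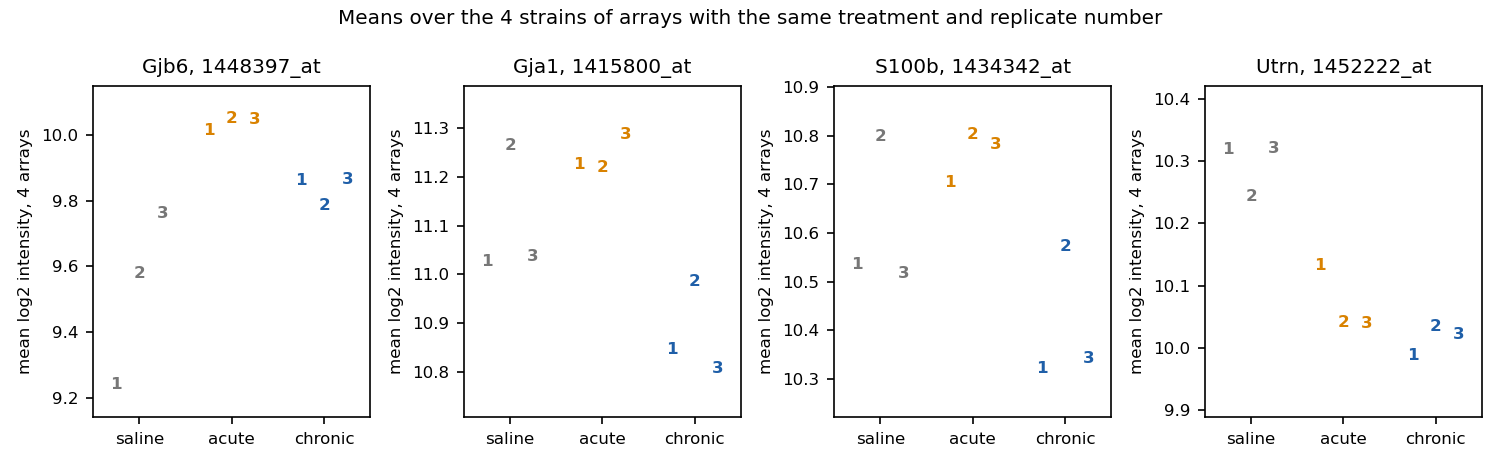
Mean log2 intensity over the 4 strains of arrays with the same treatment and replicate number (the numerals 1, 2 and 3), for Gjb6, Gja1, S100b and Utrn. The saline means of Gjb6 spread from 9.24 to 9.76, and the chronic means of Gja1, S100b and Utrn lay below their acute means. For Utrn that difference was small and not called (-0.06, limma, adjusted p = 0.345).

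Markers of astrocytes and of other cells were set beside the members. Of all genes, 4.66% were called after acute and 5.74% after chronic morphine. Of 11 detected astrocyte markers outside the members, 2 were higher and 0 lower after acute morphine, Fgfr3 (0.23, blocked adjusted p = 0.179) and Acsbg1 (0.24, blocked adjusted p = 0.169). After chronic morphine 1 was higher, and 5 were lower than after acute morphine (17.5% of all genes lower). With the block 0 were called against saline and 3 were lower after chronic than after acute morphine. Their mean level per array was 9.90 to 10.22 in saline, 10.02 to 10.34 after acute and 9.89 to 10.19 after chronic morphine.

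Of the oligodendrocyte list, 3 of 11 were lower after acute morphine, each with the block too, and 6 of 11 after chronic morphine, of which the block left 3. Its mean level ranged from 10.27 to 11.04 in saline and from 10.02 to 10.61 after chronic morphine. Medium spiny neuron markers were present throughout (10 of 10 detected, 10.65 to 11.04 over all arrays), with 0 called after acute (limma, 4 at an unadjusted p under 0.05) and 3 lower after chronic morphine, none of them with the block. Markers of cortical excitatory neurons were higher after chronic morphine in 2 of 8 and lower in 0, with 0 called under the block, a median change of 0.55 and ranges of 7.95 to 9.04 in saline and 8.50 to 9.49 after chronic morphine. Of the 10 endothelial markers 1 was higher and 2 lower after acute morphine (1 and 1 with the block) and 1 higher and 1 lower after chronic morphine (0 with the block). Of the 9 microglial markers 2 were lower after acute morphine (1 with the block) and 0 were called after chronic morphine (limma, 4 at an unadjusted p under 0.05). Of the 6 ependymal markers 0 were called after acute morphine (limma, 0 at an unadjusted p under 0.05) and 2 were lower after chronic morphine (1 with the block). From acute to chronic morphine 4 of 11 oligodendrocyte and 2 of 6 ependymal markers were lower (17.5% of all genes lower). So was 1 each of 10 medium spiny neuron, 10 endothelial, 9 microglial and 8 cortical markers. In that comparison 2 cortical markers and 1 microglial marker were higher. The block left 1 oligodendrocyte, 1 ependymal and 1 microglial marker, all lower. The part of tissue composition in the changes of the members was not tested.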

How the data were processed

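The 36 arrays were Affymetrix Mouse Genome 430 2.0 chips. The deposited values were linear intensities per probe set, normalized by the authors. Their methods describe several normalizations without naming the one deposited; the linear scale and the common floor of 6.69 were taken here as a dChip model-based summary. Array medians were 119 to 133, and 3.67% to 4.53% of values lay at the floor. Of 45101 probe sets, 64 controls were left out of the tests and 2 values were missing, none of a member. Columns that matched no sample numbered 0. Array number limits the precision, and arrays carry no read depth.

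Intensities were taken to log2. Probe sets above 6.64 on at least 9 arrays were kept (27212), and limma 3.58.1 in R 4.3.3 was fitted over 12 group means with moderated variances and 24 residual degrees of freedom. The F-tests, which asked for effects of strain, of morphine and of the 2 combined, were called at a false discovery rate of 1% and contrasts at an adjusted p under 0.05, Benjamini-Hochberg adjusted over all kept probe sets. The fit was tested on simulated data with independent arrays. These lacked the shared departures of arrays with the same treatment and number, so the test does not bear on calls that the block ended. Gene names came from the platform annotation, and where 1 probe set stands for a gene it is the brightest on average among those kept. Named were all members and, of each gene list, up to 4 genes that passed, by size of change, or, where none passed, the 2 that changed most, and the 5 genes most like each member with a morphine effect. Members and lists were chosen with earlier results of these data known. The lists were gap junction, transport, endfoot, enzyme, identity and reactive astrocyte genes and the markers of 7 cell types, of which 10 genes were not named in the table used here.

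Samples with the same strain and number in different treatments deviated together with a mean correlation of 0.031 over 36 pairs (38.9% above 0.1), so the numbers were not taken to pair treatments. The random block (statmod 1.5.0) used arrays of the same treatment and number. Alternatives were no filter, quantile normalization, median centring, a pseudocount of 32, other blocks, array weights, other moderation, other thresholds, the mean of a gene's probe sets, and arrays left out. Figures were drawn with matplotlib 3.10.9 in Python 3.11.15. Promoter windows were from RefSeq on GRCm38.p6.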

Additional observations from a re-analysis of the deposited data

How the results depend on the processing

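Of the values of single probe sets, recomputed under alternatives other than leaving out 1 array, 517 kept direction and side of the threshold, 34 lost their call, 21 gained one and 13 changed sign. The member probe sets called for strain rose from 3 to 5 with quantile normalization, with trend and robust moderation and at a false discovery rate of 5%, to 6 with the replicate block by number or with treatment and number fixed, and to 7 with the random replicate block. That random block also left 2 calls for morphine, 1 for acute and 1 for chronic morphine over strains and gave 26 over strain pairs, while the fixed one gave 31. With the block by number 2 acute calls within strains were made. Array weights gave 10 calls for acute morphine, 16 for chronic against acute, 12 for acute within strains and 4 for chronic within strains. Chronic calls within strains fell from 8 to 1 without the filter and to 0 without the 3 saline arrays that stood apart or at a contrast rate of 1%, which left 2 acute and 2 chronic calls over strains. Without the 3 arrays 2 acute calls remained as a count. With the mean of a gene's probe sets, 3 genes were called for strain (0 by representative), 2 for morphine (5), 2 for chronic within strains (4) and 16 over strain pairs (2). Leaving out each array in turn gave 3 to 4 calls for strain, 11 to 12 for morphine, 0 to 0 for the interaction, 2 to 5 for acute, 7 to 10 for chronic, 9 to 11 for chronic against acute, 0 to 1 for acute within strains, 0 to 9 for chronic within strains and 16 to 22 over strain pairs.

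With quantile normalization the chronic change of Glul was 0.0297 and of Aldoc 0.0171, and chronic minus acute of Slc1a3 was 0.0141. With the mean of a gene's probe sets the acute changes were -0.12 for Slc1a2, 0.0798 for Slc1a3 and -0.0311 for S100b. The chronic changes were 0.0648 for Glul and 0.17 for Aldoc. Chronic minus acute was 0.0093 for Aqp4 (called lower on its representative), -0.0423 for Gfap, 0.20 for Slc1a2 (adjusted p = 0.0115 in limma), 0.0155 for Aldoc and 0.10 for Utrn. With single arrays left out the acute change ran from -0.0333 to 0.0105 for Aqp4 and -0.035 to 0.0208 for Slc1a3, chronic minus acute from -0.0032 to 0.11 for Gfap, and the chronic change of Slc1a2 from -0.00021 to 0.0334. The cause of these differences was not tested.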
